A study of Mus musculus with 18 samples.

Results

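Ccr1, Ccr2, Ccr3, Ccr4, Ccr8, Cxcr3 and Cxcr6 are 7 chemokine receptors that lead T cells and other leukocytes into inflamed tissue, skin and tumours. Their levels were read from all probe sets whose deposited gene name equals one of these symbols. They had 12 of the 45101 probe sets on 10 Affymetrix arrays and 11 of the 22690 probe sets on 8 further arrays. Ccr1 and Cxcr6 had 2 probe sets on either array, Ccr2 had 4 on the larger and 3 on the smaller one, and the other members had 1. A gene with several probe sets is represented by its brightest probe set, by the mean over the arrays of a table.

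Chemokine receptors are G-protein-coupled receptors that steer a cell up a gradient of secreted chemokines. Which receptors a CD4 T cell carries depends on its state: naive cells carry receptors for lymphoid organs, and activated effector and regulatory T cells gain receptors for ligands made in inflamed tissue. Cxcr3 is induced by T-bet (Tbx21), the Th1 factor, Ccr4 and Ccr8 are known from Th2 cells, skin-homing cells and regulatory T cells, and Ccr8 is a known surface marker of regulatory T cells in tumours.

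The study profiled sorted mouse CD4+ T cells under the theme of chromatin repression in regulatory T cells (Treg) during inflammation. In Foxp3DTR mice treated with DT, 5 arrays hold Foxp3-positive cells (titled aTreg) and 5 hold Foxp3-negative cells (Teff), all from spleen and lymph node. In Foxp3GFP mice, 2 arrays hold Foxp3-positive and 2 hold Foxp3-negative cells from B16 tumours (tumour Treg and tumour Teff), and 2 arrays each hold the corresponding cells from spleen and lymph node (spleen Treg and spleen Teff). The mice were 6 to 8 weeks old, and all cells were enriched with beads for CD4 and sorted on GFP in successive rounds. Foxp3DTR mice make the diphtheria toxin receptor under control of Foxp3, so DT removes cells that express Foxp3, and both groups of that table come from treated animals. B16 is a mouse melanoma line. The labels give neither the time after DT, the sex of the mice, nor whether replicates were separate animals, so the p-values below measure only the spread between these samples.

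Several measurements bear on the labels. The Foxp3 probe set 1420765_a_at averaged 9.97 ± 0.0289 (SD, n = 2) in spleen Treg arrays and 3.12 ± 0.1 in spleen Teff arrays. It was low in the other arrays labelled Treg, with 3.22 ± 0.127 in DT aTreg against 3.19 ± 0.181 in DT Teff arrays (n = 5 each), and 3.25 ± 0.0741 in tumour Treg against 3.15 ± 0.0357 in tumour Teff arrays (n = 2 each). Directions for those 7 arrays therefore rest on the labels, and Treg and Teff below mean the arrays so labelled. The 9 T cell markers had array means of 11.06 to 11.52 on all arrays, and both CD8 markers measured were called lower in tumour Treg than in tumour Teff arrays. Of a list of 7 Treg markers that includes Foxp3, 6 were called higher in arrays labelled Treg after DT, 7 in spleen and 5 in tumour, and none was called lower. Tumour and spleen arrays of the Foxp3GFP mice also split by sex-linked genes. Xist (1427262_at) reached at most 2.62 in tumour arrays and at least 10.57 in spleen arrays, and Ddx3y was at least 9.91 in tumour arrays and at most 2.81 in spleen arrays. Tumour Treg and spleen Treg arrays also differed in Foxp3 1420765_a_at, by -6.72 (tumour minus spleen). Tumour origin and these differences cannot be told apart. In the larger table, aTreg array 4 and Teff arrays 4 and 5 correlated least with their own group (mean r 0.981, 0.972 and 0.977), and all 6 calls for these receptors there also passed without those 3 arrays.

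Every value below is a deposited log2 level, and every difference is on the log2 scale with the first-named group minus the second. The 2 tables were normalized separately, so levels are compared only within a table. Calls are at adjusted p under 0.05 in limma, with p-values adjusted over all probe sets of the table. These are bulk samples, in which fewer cells of a type and less RNA per cell cannot be told apart. The spleen and tumour comparisons reuse the same 8 arrays, so their results are not independent of each other.

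In all 3 settings, most of the 7 receptors were higher in Treg than in Teff arrays. After DT, 5 genes were called higher, 1 lower and 1 was not called, against 5.08% of all 20688 named genes called higher and 3.82% lower. By probe set, 7 of 12 were called higher and 2 lower, against 3.86% and 2.9% of all probe sets. The median difference of the 7 genes was 1.03, against 0.03 over all genes. In the spleen and lymph node arrays, 4 genes were called higher, 1 lower and 2 were not called, against 7.21% of 13121 genes higher and 6.1% lower, with a median of 0.75. By probe set, 6 of 11 were higher and 2 lower, against 6.27% and 6.11% of all. In tumour, 5 were called higher, none lower and 2 were not called, against 13.7% higher and 11.2% lower, with a median of 1.36 against 0.01 over all genes. By probe set, 8 of 11 were higher and none lower, against 12.2% and 11.1% of all. The members were picked with results of these data known, so these shares describe the receptors and are no test of the list. Counts for markers and other lists are to be read against these same shares, and were not tested against them.

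**Figure D1:**
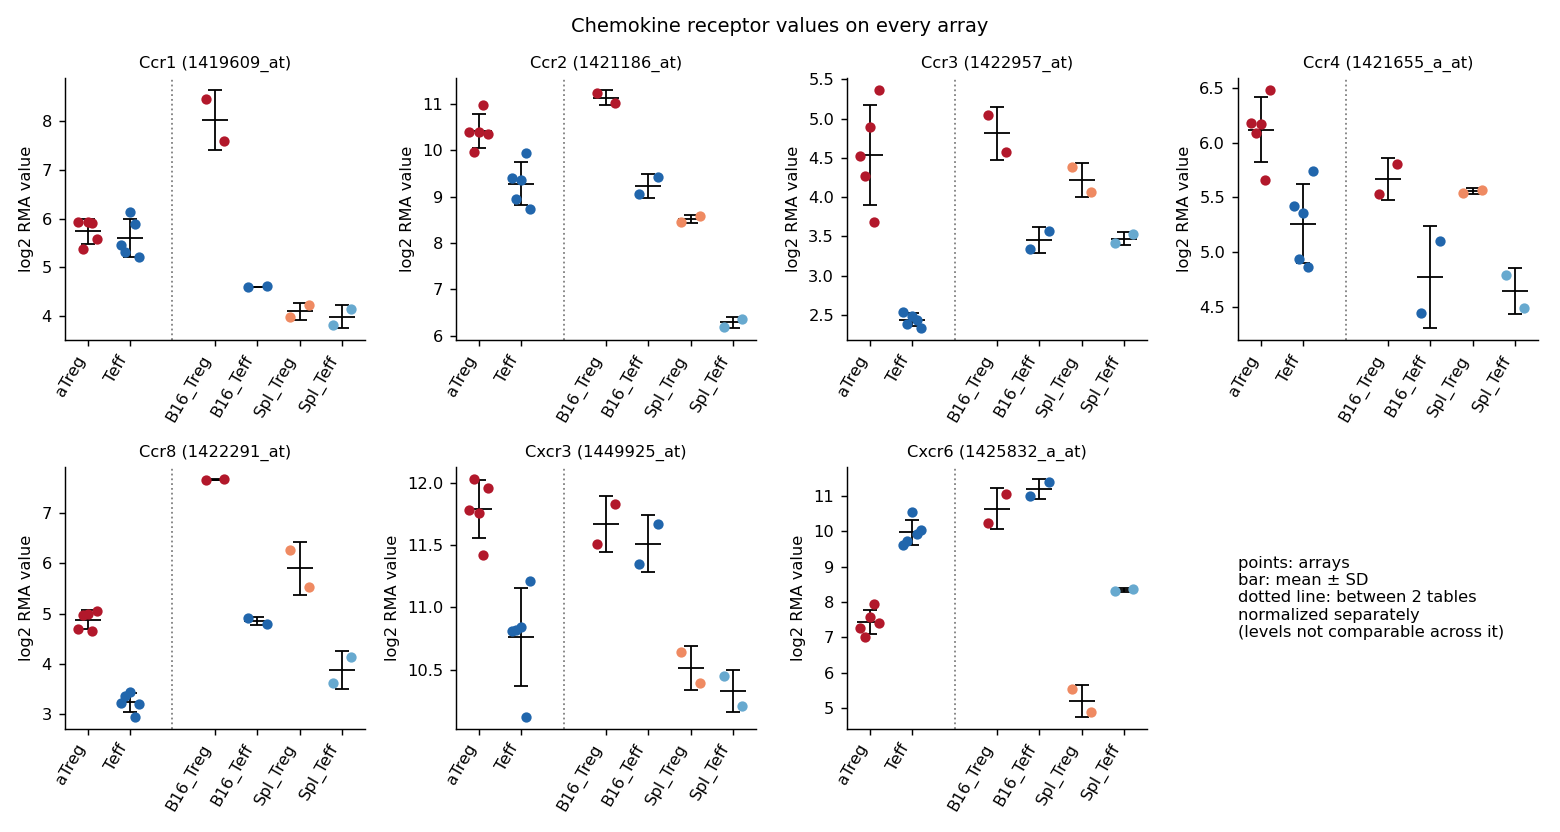
Log2 level of the representative probe set of each receptor on every array, with bars for the mean ± SD; a dotted line parts the DT arrays (aTreg, Teff) from the tumour (B16_) and spleen (Spl_) arrays, whose table was normalized separately. Ccr1 stands high in the 2 tumour Treg arrays (7.59 and 8.44), and Cxcr6 is lower in Treg than in Teff arrays after DT and in spleen.

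The promoters of Ccr2, Ccr3, Ccr4 and Ccr8, called higher in Treg arrays in all 3 settings, and of Cxcr6, called lower in 2 of them, are shown because these receptors differed between the cell types in the most settings. They come from RefSeq, build GRCm38.p6, and run from 250 bases before to 50 bases after the gene start, 5′ to 3′ on the gene's strand. All 7 members matched this table. Capitals mark matches, on either strand, to the GATA motif AGATAA, the T-box motif TCACAC, the forkhead motif GTAAACA, the NFAT motif GGAAAA or the AP-1 motif TGANTCA. The Ccr2 promoter is at chr9:124101933-124102232 (plus strand), that of Ccr3 at chr9:124021721-124022020 (plus strand), that of Ccr4 at chr9:114496495-114496794 (minus strand), that of Ccr8 at chr9:120091883-120092182 (plus strand) and that of Cxcr6 at chr9:123806227-123806526 (plus strand).
Ccr2: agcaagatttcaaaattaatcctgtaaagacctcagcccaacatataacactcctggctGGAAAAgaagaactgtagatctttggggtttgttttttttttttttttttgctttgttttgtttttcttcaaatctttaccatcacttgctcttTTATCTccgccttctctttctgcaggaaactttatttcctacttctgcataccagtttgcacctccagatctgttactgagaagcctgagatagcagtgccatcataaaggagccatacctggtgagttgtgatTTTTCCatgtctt
Ccr3: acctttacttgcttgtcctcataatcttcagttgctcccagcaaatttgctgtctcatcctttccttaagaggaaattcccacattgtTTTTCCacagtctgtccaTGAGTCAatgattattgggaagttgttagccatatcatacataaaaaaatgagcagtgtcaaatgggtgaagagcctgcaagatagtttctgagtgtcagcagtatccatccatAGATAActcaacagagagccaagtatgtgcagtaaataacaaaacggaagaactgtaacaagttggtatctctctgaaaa
Ccr4: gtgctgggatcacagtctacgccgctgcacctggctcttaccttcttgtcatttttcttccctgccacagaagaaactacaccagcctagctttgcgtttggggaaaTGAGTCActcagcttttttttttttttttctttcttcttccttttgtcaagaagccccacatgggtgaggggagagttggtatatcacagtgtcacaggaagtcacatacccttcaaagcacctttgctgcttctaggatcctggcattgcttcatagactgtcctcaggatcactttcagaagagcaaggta
Ccr8: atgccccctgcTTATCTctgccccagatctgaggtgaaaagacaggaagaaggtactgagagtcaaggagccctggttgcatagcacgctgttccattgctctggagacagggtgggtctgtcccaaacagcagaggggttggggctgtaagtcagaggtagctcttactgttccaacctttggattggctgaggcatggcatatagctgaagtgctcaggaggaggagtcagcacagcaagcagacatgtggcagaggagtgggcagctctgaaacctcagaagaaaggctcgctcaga
Cxcr6: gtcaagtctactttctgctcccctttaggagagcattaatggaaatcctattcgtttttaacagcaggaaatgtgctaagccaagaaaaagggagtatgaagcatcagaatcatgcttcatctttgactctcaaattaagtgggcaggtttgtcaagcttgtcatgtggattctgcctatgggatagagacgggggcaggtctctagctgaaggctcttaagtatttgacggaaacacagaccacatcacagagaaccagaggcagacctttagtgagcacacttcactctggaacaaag

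Among the 7 promoters, the GATA letters occurred in 3 (Ccr2, Ccr3 and Ccr8), against 11.2% of 32851 promoters of the same length. The T-box letters occurred in 2 (Ccr1 and Cxcr3), against 14.5%. The NFAT letters occurred in 2 (Ccr2 and Ccr3), against 23.4%, and the AP-1 letters in 2 (Ccr3 and Ccr4), against 7.81%. The forkhead letters occurred in none of the 7, against 3.65%. The Cxcr6 window held none of the 5 motifs. A match is a string of letters in this window and says nothing of binding.

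Ccr1, a receptor for Ccl3, Ccl5 and other inflammatory chemokines best known from monocytes and neutrophils, was high in tumour Treg arrays. Its probe set 1419609_at read 8.44 and 7.59 in tumour Treg arrays and 4.60 and 4.61 in tumour Teff arrays. It read 3.98 and 4.22 in spleen Treg arrays and 3.82 and 4.15 in spleen Teff arrays. The 2 tumour Treg arrays lay far above the other 6, which spanned less than one log2 unit. Those 6 lay between percentile 22.8 and percentile 34.9, where some readings may be background. Folds against them may then be lower bounds, and differences among them may be missed. Ccr1 was 10.7-fold higher in tumour Treg than in tumour Teff arrays (log2 difference 3.41, SE 0.247, adjusted p = 3.74e-05). The second probe set, 1419610_at, was dimmer and read 4.22 and 3.78 in tumour Treg arrays against 2.77 and 2.59 in tumour Teff arrays, a called difference of 1.32 (adjusted p = 0.00155). Outside tumour Treg, 1419610_at read between percentile 0.0132 and percentile 3.93 of the probe sets on the arrays of that table, where a reading may be background, so its differences there may be lower bounds and add little to those of 1419609_at. In spleen the difference of 1419609_at was 0.11 with overlapping groups (adjusted p = 0.84, 95% interval -0.45 to 0.68). The tumour difference exceeded the spleen difference by 3.30 (SE 0.349, adjusted p = 0.00221) for 1419609_at and by 1.16 (adjusted p = 0.0519, not called) for 1419610_at, which rests on those low readings.

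After DT, Ccr1 did not separate the cell types. The 5 aTreg arrays read 5.92, 5.38, 5.94, 5.90 and 5.58, and the 5 Teff arrays read 5.46, 5.31, 6.14, 5.88 and 5.22. The groups overlapped, with a difference of 0.14 (adjusted p = 0.782, interval -0.27 to 0.55). In tumour Treg arrays Ccr1 was 15.1-fold above spleen Treg arrays (3.92, adjusted p = 2.12e-05). In tumour Teff arrays it was 0.61 above spleen Teff arrays, a difference that was not called (adjusted p = 0.145). In descending order the levels were tumour Treg, tumour Teff, spleen Treg and spleen Teff, and the step from spleen Treg to spleen Teff lay within the spread.

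Of 17 markers of monocytes, macrophages and dendritic cells, which also carry Ccr1 and Ccr2, 1 was called higher and 7 lower in tumour Treg than in tumour Teff arrays. Their array means were 5.62 to 6.16 in tumour Treg arrays and 6.92 to 7.38 in tumour Teff arrays. Between sites, 5 were called higher and 2 lower in tumour Teff (array means 6.92 to 7.38) than in spleen Teff arrays (6.61 to 6.84). In tumour Treg (5.62 to 6.16) against spleen Treg arrays (6.19 to 6.46), 1 was called higher and 5 lower. Of 9 neutrophil markers, 1 was called higher in tumour Treg arrays and none lower, with array means of 3.95 to 3.97 in tumour Treg and 3.63 to 3.73 in tumour Teff arrays. The part of these cells in the Ccr1 and Ccr2 values was not tested.

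Ccr2, the receptor for Ccl2 and Ccl7 that recruits monocytes and activated T cells, was higher in Treg arrays in every setting and higher in tumour than in spleen for both cell types. The 5 DT aTreg arrays read 10.40, 9.96, 10.39, 10.98 and 10.34, against 9.40, 8.95, 9.36, 9.94 and 8.73 in the 5 DT Teff arrays. The groups did not overlap, though the lowest aTreg array and the highest Teff array were 9.96 and 9.94. The difference was 1.14 (SE 0.231, adjusted p = 0.0104), or 2.21-fold. Of the other Ccr2 probe sets, 1421187_at (1.27, adjusted p = 0.015) and 1421188_at (1.04, adjusted p = 0.00913) were also called, and 1460067_at was not (0.65, adjusted p = 0.0636).

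In the Foxp3GFP mice, Ccr2 (1421186_at) read 11.24 and 11.02 in tumour Treg arrays and 9.05 and 9.42 in tumour Teff arrays. It read 8.46 and 8.58 in spleen Treg arrays and 6.20 and 6.37 in spleen Teff arrays. The 4 groups were fully separated in this order, with the step from tumour Teff to spleen Treg not tested. Treg arrays were 3.72-fold higher in tumour (1.90, SE 0.142, adjusted p = 4.44e-05) and 4.72-fold higher in spleen (2.24, SE 0.142, adjusted p = 4.25e-05). Tumour arrays were 6.09-fold above spleen arrays in Treg (2.61, adjusted p = 1.22e-05) and 7.72-fold in Teff (2.95, adjusted p = 1.54e-05). The tumour and spleen Treg differences were not shown to differ: the interaction was -0.34 (adjusted p = 0.44, interval -0.8 to 0.12), and it was 0.46 and 0.50 at the other probe sets (adjusted p = 0.166 and 0.453). Ccr2 thus had opposite signs for the interaction at different probe sets, none of them called. Spleen Teff arrays read low at the other probe sets, where a reading may be background. They lay at percentile 19.8 and percentile 5.68 at 1421188_at, and at percentile 32.4 and percentile 36.9 at 1421187_at. The spleen differences at these probe sets may then be lower bounds, and their interactions too high.

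Ccr3, the eotaxin receptor best known from eosinophils and basophils, was higher in Treg arrays in all 3 settings from a low level. After DT the aTreg arrays read 4.52, 4.27, 4.89, 3.68 and 5.36, and the Teff arrays read 2.54, 2.38, 2.49, 2.44 and 2.33. The Teff arrays lay close together at the bottom of the scale, between percentile 8.55 and percentile 17.3 of all probe sets on their arrays, and no aTreg array came near them. The difference was 2.11 (SE 0.248, adjusted p = 0.000285), or 4.31-fold. No detection calls were used, so the Teff readings of Ccr3 may be background, in all 3 settings, and its differences against Teff are then lower bounds. In tumour, Ccr3 read 5.04 and 4.57 in Treg arrays against 3.34 and 3.57 in Teff arrays, a difference of 1.36 (SE 0.17, adjusted p = 0.000703). In spleen it read 4.38 and 4.07 in Treg arrays against 3.42 and 3.53 in Teff arrays, and the difference of 0.75 (SE 0.17) was called at adjusted p = 0.0239. This call ended without spleen Teff array 1 (0.69, adjusted p = 0.132), without spleen Teff array 2 (0.81, adjusted p = 0.092) and without spleen Treg array 1 (0.60, adjusted p = 0.138).

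Tumour Treg arrays exceeded spleen Treg arrays in Ccr3 by 0.59 (adjusted p = 0.0414), and the call was lost without tumour Treg array 1 (0.35, adjusted p = 0.226), without spleen Treg array 1 (0.74, adjusted p = 0.0519) and without spleen Treg array 2 (0.43, adjusted p = 0.203). In Teff the difference was -0.02 (adjusted p = 0.959). The levels ran tumour Treg, spleen Treg, spleen Teff and tumour Teff, and the last pair differed by less than their spread. Of 8 measured markers of eosinophils, basophils and mast cells, none was called between Treg and Teff arrays after DT, 1 was called lower in spleen Treg arrays and 1 higher in tumour Treg arrays. Their array means were 3.08 to 3.32 in DT aTreg and 3.10 to 3.24 in DT Teff arrays. They were 4.07 to 4.08 in tumour Treg and 3.95 to 3.97 in tumour Teff arrays, and 3.92 to 3.93 in spleen Treg and 3.97 to 3.98 in spleen Teff arrays. Their part in the Ccr3 values was not tested.

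Ccr4, the receptor for Ccl17 and Ccl22 on Th2, skin-homing and regulatory T cells, was higher in Treg arrays in each setting by nearly the same amount. The DT aTreg arrays read 6.18, 6.09, 6.17, 5.66 and 6.48, and the DT Teff arrays read 5.42, 4.94, 5.36, 4.86 and 5.74. The groups overlapped, since Teff array 5 (5.74) lay above aTreg array 4 (5.66). The difference was 0.86 (SE 0.188, adjusted p = 0.0165), or 1.81-fold. In tumour, Ccr4 read 5.53 and 5.81 in Treg arrays and 4.44 and 5.10 in Teff arrays (0.90, SE 0.206, adjusted p = 0.0143). In spleen it read 5.54 and 5.57 in Treg arrays and 4.79 and 4.49 in Teff arrays (0.91, SE 0.206, adjusted p = 0.0232).

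The calls for Ccr4 in the Foxp3GFP mice each depended on single arrays. The tumour call ended without tumour Teff array 1 (0.57, adjusted p = 0.054) and without tumour Treg array 2 (0.76, adjusted p = 0.0923). The spleen call ended without any 1 of the 4 arrays, at differences of 0.76 to 1.06 and adjusted p of up to 0.153. Tumour and spleen arrays overlapped in both cell types, with differences of 0.11 in Treg (adjusted p = 0.763, interval -0.36 to 0.58) and 0.13 in Teff (adjusted p = 0.75, interval -0.34 to 0.6). The order was thus both Treg groups above both Teff groups, without a called difference between sites.

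Ccr8, the receptor for Ccl1 and a surface marker of Treg in tumours, was higher in Treg arrays in each setting. The DT aTreg arrays read 4.70, 4.98, 5.0, 4.65 and 5.06, and the DT Teff arrays read 3.22, 3.35, 3.44, 2.94 and 3.19. All 5 aTreg arrays lay above all 5 Teff arrays by more than one log2 unit, and the difference was 1.65 (SE 0.124, adjusted p = 1.05e-05), or 3.14-fold. In tumour, Ccr8 read 7.66 and 7.68 in Treg arrays against 4.91 and 4.79 in Teff arrays, a 7.05-fold difference (2.82, SE 0.238, adjusted p = 8.36e-05). In spleen it read 6.26 and 5.53 in Treg arrays against 3.61 and 4.14 in Teff arrays, a 4.07-fold difference (2.02, SE 0.238, adjusted p = 0.000943). The spleen Teff readings of Ccr8 lay at percentile 18.3 and percentile 28.4 and may be background. The DT Teff readings of Ccr8 lay between percentile 30.1 and percentile 39.5 and may be background too. Differences of Ccr8 against spleen Teff and against DT Teff arrays may then be lower bounds. The tumour difference exceeded the spleen difference by 0.79, which was not called (adjusted p = 0.26, interval 0.02 to 1.57 before adjustment).

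Ccr8 was also higher in tumour than in spleen. In Treg the difference was 1.77 (SE 0.238, adjusted p = 0.00118), or 3.41-fold. In Teff it was 0.98 (adjusted p = 0.0296), and this call ended without tumour Teff array 1 (0.92, adjusted p = 0.118), without tumour Teff array 2 (1.03, adjusted p = 0.0823) and without spleen Teff array 1 (0.71, adjusted p = 0.174). From high to low the groups stood tumour Treg, spleen Treg, tumour Teff and spleen Teff, with no overlap between neighbours and the step from spleen Treg to tumour Teff not tested.

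Cxcr3, the receptor for the interferon-induced chemokines Cxcl9, Cxcl10 and Cxcl11, stood at a high level on every array, between percentile 93.9 and percentile 99.1 of all probe sets. After DT the aTreg arrays read 11.78, 12.03, 11.76, 11.42 and 11.96, and the Teff arrays read 10.81, 10.82, 10.84, 10.12 and 11.21. The groups did not overlap, and the difference was 1.03 (SE 0.185, adjusted p = 0.00492), or 2.04-fold. In the Foxp3GFP mice the cell types did not separate. Tumour Treg arrays read 11.51 and 11.83 against 11.35 and 11.67 in tumour Teff arrays (0.16, adjusted p = 0.561, interval -0.21 to 0.52). Spleen Treg arrays read 10.64 and 10.39 against 10.45 and 10.21 in spleen Teff arrays (0.18, adjusted p = 0.553, interval -0.18 to 0.55).

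The Foxp3GFP arrays separated in Cxcr3 between tumour and spleen, a split that they share with Xist and Ddx3y. Tumour origin and that sex-linked split cannot be told apart. Tumour arrays were 2.23-fold above spleen arrays in Treg (1.16, SE 0.16, adjusted p = 0.00135) and 2.27-fold in Teff (1.18, SE 0.16, adjusted p = 0.00238). The interaction was -0.02 (adjusted p = 0.976, interval -0.54 to 0.49). The difference between the DT table and the Foxp3GFP table in how Cxcr3 separated the cell types was not tested. Plasmacytoid dendritic cells are known to carry Cxcr3. Of 7 measured markers of these cells, all 7 were called lower in tumour Treg than in tumour Teff arrays and all 7 higher in tumour Teff than in spleen Teff arrays, while 1 was called higher and 2 lower in tumour Treg than in spleen Treg arrays. Their array means were 6.52 to 6.86 in tumour Treg, 9.53 to 10.38 in tumour Teff, 7.0 to 7.27 in spleen Treg and 8.01 to 8.09 in spleen Teff arrays. Their part in the tumour and spleen Teff values of Cxcr3 was not tested.

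Cxcr6, the receptor for the membrane-bound chemokine Cxcl16 on activated and tissue-resident T cells and NKT cells, was the one member called lower in Treg arrays. After DT, probe set 1425832_a_at read 7.26, 7.02, 7.58, 7.95 and 7.41 in aTreg arrays and 9.61, 9.73, 10.54, 9.93 and 10.03 in Teff arrays. The highest aTreg array was far below the lowest Teff array. Cxcr6 fell to a 5.76-fold lower level in aTreg arrays (-2.53, SE 0.199, adjusted p = 1.44e-05). Probe set 1422812_at read 7.24, 6.83, 7.28, 7.12 and 7.09 in aTreg arrays and 9.48, 9.70, 10.07, 9.61 and 9.63 in Teff arrays (-2.59, SE 0.128, adjusted p = 4.46e-07). Both probe sets gave nearly the same difference.

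In spleen of the Foxp3GFP mice, Cxcr6 (1425832_a_at) read 5.54 and 4.89 in Treg arrays and 8.30 and 8.37 in Teff arrays, an 8.71-fold lower level in Treg (-3.12, SE 0.283, adjusted p = 0.000224). In tumour it read 10.24 and 11.05 in Treg arrays and 11.00 and 11.39 in Teff arrays. These groups overlapped, and the difference of -0.55 was not called (adjusted p = 0.221, interval -1.2 to 0.1). At 1422812_at the tumour groups did not overlap, with 9.35 and 9.92 in Treg arrays and 9.98 and 10.46 in Teff arrays. The difference there was -0.59 and was not called (adjusted p = 0.0751, interval -1.06 to -0.12 before adjustment). Without tumour Treg array 2 the difference of 1425832_a_at was -0.96 and was called at adjusted p = 0.0494.

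The interaction for Cxcr6 was 2.57 at 1425832_a_at (SE 0.4, adjusted p = 0.00968) and 2.57 at 1422812_at (SE 0.29, adjusted p = 0.00289), so the shortfall of Treg arrays in spleen exceeded that in tumour. At 1422812_at the spleen Treg arrays lay at percentile 28.7 and percentile 30.8, where a reading may be background. The spleen shortfall and the interaction at that probe set may then be lower bounds. The call of 1425832_a_at ended with an intensity trend and robust prior (adjusted p = 0.0595). Tumour Treg arrays were 43.1-fold above spleen Treg arrays (5.43, SE 0.283, adjusted p = 9.91e-06) and tumour Teff arrays 7.26-fold above spleen Teff arrays (2.86, SE 0.283, adjusted p = 0.000576). From high to low the groups stood tumour Teff, tumour Treg, spleen Teff and spleen Treg. The step from tumour Teff to tumour Treg was not called and the step from tumour Treg to spleen Teff was not tested.

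**Figure D2:**
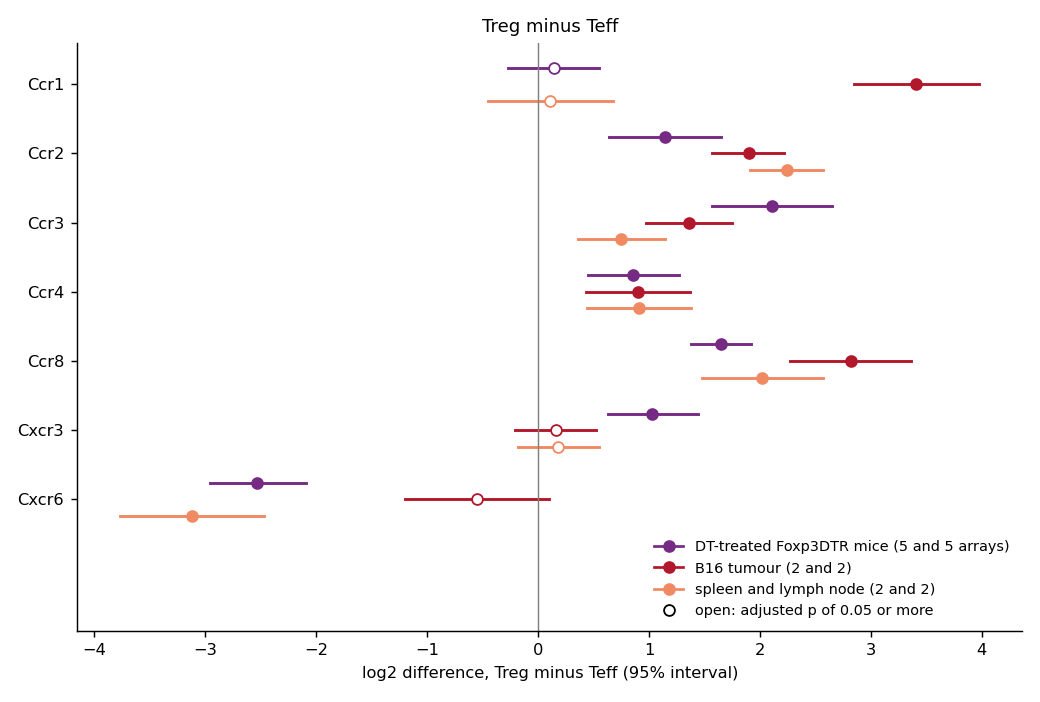
Log2 difference of Treg minus Teff for the representative probe set of each receptor after DT, in tumour and in spleen, with 95% intervals. Ccr2, Ccr3, Ccr4 and Ccr8 lie above 0 in all 3 settings, Cxcr6 lies below 0 with an interval that reaches 0 only in tumour, and Ccr1 is high only in tumour (3.41).

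NK cells and NKT cells also carry Cxcr6. Of 6 NK cell markers, 4 were called lower in aTreg than in DT Teff arrays, and 3 were called lower in Treg than in Teff arrays in spleen and 3 in tumour, with none higher. Array means were 3.72 to 4.10 in DT aTreg against 5.31 to 5.67 in DT Teff arrays. They were 4.15 to 4.40 in spleen Treg against 5.48 to 5.51 in spleen Teff arrays, and 4.13 to 4.14 in tumour Treg against 6.03 to 6.04 in tumour Teff arrays. The Cxcr6 differences in tumour were -0.55 at 1425832_a_at and -0.59 at 1422812_at, neither of them called. The part of NK and NKT cells in the Cxcr6 values was not tested.

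Tumour against spleen, 6 of the 7 receptors were called higher in Treg and 4 in Teff, and none was called lower in either. Of all 13121 genes, 11% were called higher and 11.7% lower in Treg, and 7.35% higher and 7.6% lower in Teff. By probe set, 10 of 11 were called higher in Treg, against 10.6% higher and 11% lower of all, and 7 of 11 in Teff, against 6.92% and 7.01%. The median difference of the members was 1.77 in Treg against -0.03 over all genes, and 0.98 in Teff against -0.04. Ccr4 was the member not called in either cell type. The interaction was called for Ccr1 and Cxcr6, both higher, against 2.58% of all genes called higher and 2.9% lower. By probe set it was called higher for 3 of 11, against 2.42% higher and 2.64% lower of all. Beside the sex-linked genes, 5 of 6 measured melanoma markers were called higher in tumour than in spleen arrays in either cell type. Their array means were 7.33 to 7.75 in tumour Treg and 6.98 to 7.72 in tumour Teff arrays, against 4.68 to 4.79 in spleen Treg and 4.81 to 4.85 in spleen Teff arrays. Their part in the receptor values was not tested.

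**Figure D3:**
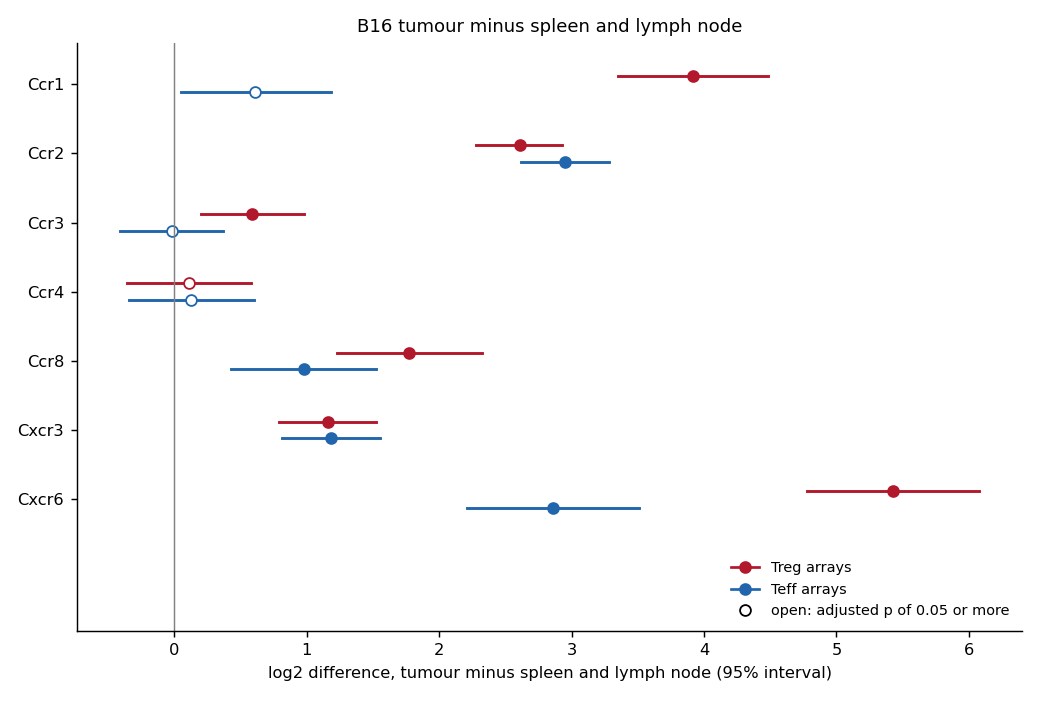
Log2 difference of tumour minus spleen and lymph node for each receptor in Treg and in Teff arrays, with 95% intervals. Cxcr6 (5.43 in Treg, 2.86 in Teff) and Ccr1 (3.92 in Treg, 0.61 in Teff) differ most between the cell types, and Ccr2 and Cxcr3 moved nearly alike in both.

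The ligands of these receptors, secreted mostly by myeloid, stromal and activated T cells, were measured as 18 genes. After DT, none was called higher and 3 lower in aTreg arrays: Ccl1 (-2.69), Ccl5 (-1.90) and Ccl3 (-1.41). In spleen, none was called higher and 3 lower in Treg arrays: Ccl3 (-2.03), Ccl4 (-1.34) and Ccl5 (-0.62). In tumour, 5 were called higher in Treg arrays, namely Ccl9 (1.47), Ccl5 (0.82), Cxcl10 (0.78), Ccl2 (0.57) and Ccl7 (0.38), and Ccl4 (-1.12) and Ccl11 (-0.35) were called lower. In Treg, 7 ligands were called higher in tumour than in spleen: Ccl3 (4.19), Ccl5 (2.60), Ccl4 (2.50), Ccl9 (2.29), Ccl1 (1.98), Ccl2 (0.77) and Ccl7 (0.41). In Teff, 5 were called higher: Ccl4 (2.27), Ccl1 (2.01), Ccl3 (1.47), Ccl5 (1.16) and Ccl9 (0.65). Ccl3, Ccl5 and Ccl9, which bind Ccr1, also had a called interaction (2.71, 1.44 and 1.64), as did Ccr1. The list medians were -0.09 after DT, -0.05 in spleen and 0.31 in tumour. The shares of all genes called higher and lower were 5.08% and 3.82% after DT, and 7.21% and 6.1% in spleen. They were 13.7% and 11.2% in tumour, 11% and 11.7% between sites in Treg, and 7.35% and 7.6% in Teff. For the interaction they were 2.58% and 2.9%.

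Of 13 other measured chemokine receptors, 2 were called higher and 2 lower in aTreg arrays after DT, all against Teff. In spleen Treg arrays 3 were higher and 1 lower, and in tumour Treg arrays 3 higher and 3 lower. The shares of all genes were 5.08% and 3.82% after DT, 7.21% and 6.1% in spleen, and 13.7% and 11.2% in tumour. Ccrl2, a chemerin-binding receptor, was called higher in Treg in all 3 (2.01 after DT, 1.49 in spleen and 3.06 in tumour). Ccr6, the receptor for Ccl20, was called higher in spleen (2.50) and in tumour (1.5), and Cxcr4 in spleen (0.43). Ccr7, the lymph node receptor, was called lower in spleen (-1.18) and in tumour (-1.04). Cxcr5, the follicular receptor, was called lower after DT (-1.35) and in tumour (-0.64). Cx3cr1 was called lower after DT (-1.23) and higher in tumour (1.04). Ccr9, the gut receptor that is also a marker in the plasmacytoid list, was called higher after DT (0.76) and lower in tumour Treg arrays (-6.12).

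Between tumour and spleen, 3 of these receptors were called higher and 3 lower in Treg: Ccrl2 (1.91), Cx3cr1 (1.21) and Xcr1 (0.50), against Cxcr5 (-3.84), Ccr9 (-3.30) and Ccr7 (-0.73). In Teff, 3 were higher and 2 lower: Ccr9 (2.57), Ccr6 (0.80) and Cxcr4 (0.71), against Cxcr5 (-2.87) and Ccr7 (-0.87). Xcr1 read low in Treg, at percentile 23.9 and percentile 28.5 in tumour and percentile 16.4 and percentile 16.8 in spleen arrays. Its readings may be background. The interaction was called for Ccrl2 (1.57) and Cx3cr1 (1.19), and with a negative sign for Ccr6 (-1.0) and Ccr9 (-5.87). The shares of all genes called higher and lower were 11% and 11.7% in Treg between sites, and 7.35% and 7.6% in Teff. For the interaction they were 2.58% and 2.9%.

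Of the genes that carry the receptor signal or end it, 1 of 24 was called higher and 2 lower in aTreg arrays after DT. All genes gave 5.08% higher and 3.82% lower there. The called genes were Rgs1 (1.17), an inhibitor of G-protein signalling, against Pik3r5 (-0.68) and Rgs2 (-0.49). Of 23 measured in the other table, 3 were called higher and 4 lower in spleen Treg arrays, and 6 higher and 2 lower in tumour Treg arrays. All genes gave 7.21% higher and 6.1% lower in spleen, and 13.7% higher and 11.2% lower in tumour. Rgs1 was higher in spleen Treg (1.27), and Rgs16 (1.78) and Rgs2 (1.15) in tumour Treg arrays, while Rgs18 was lower in both (-1.94 in spleen and -4.02 in tumour). Between tumour and spleen, 8 were called higher and 3 lower in Treg, with Rgs2 at 1.61, Gng2 at 1.42 and Rgs10 at -1.44. In Teff, 5 were called higher and 1 lower, with Rgs1 at 2.01 and Rgs10 at -0.88. All genes gave 11% higher and 11.7% lower in Treg between sites, and 7.35% higher and 7.6% lower in Teff.

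Of 10 T helper lineage factors, Prdm1 (Blimp-1) was called higher in Treg arrays in all 3 settings (1.94 after DT, 2.44 in spleen and 1.80 in tumour). Eomes, which also stands in the NK list, was called lower in all 3 (-1.58, -2.13 and -2.04). In all, 2 were called higher and 3 lower after DT, 3 higher and 2 lower in spleen, and 3 higher and 1 lower in tumour. The shares of all genes were 5.08% and 3.82% after DT, 7.21% and 6.1% in spleen, and 13.7% and 11.2% in tumour. Gata3, the Th2 factor, was called higher in spleen (0.77) and tumour (0.72). Tbx21, which encodes T-bet and drives Cxcr3, was called lower in spleen Treg arrays (-1.31) and higher in tumour than in spleen in Treg (2.18) and Teff (0.85), with a called interaction of 1.32. Cxcr3 had no called interaction. Bcl6 was called lower in aTreg arrays (-2.39) and lower in tumour than in spleen in Treg (-1.22) and Teff (-1.10).

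By RefSeq order, Ccr1, Ccr2, Ccr3 and Cxcr6 stand within one stretch of chromosome 9, chosen here by position, that runs Lztfl1, Ccr9, Fyco1, Cxcr6, Xcr1, Ccr1, Ccr1l1, Ccr3 and Ccr2. Ccr4 and Ccr8 lie elsewhere on chromosome 9 and Cxcr3 on the X chromosome. Neighbours differed in their calls and directions. Ccr3 and Ccr2 at one end were called higher in Treg in all 3 settings. Ccr1l1 and Xcr1, which flank Ccr1, had no Treg call in any setting, with differences from -0.06 to 0.14. Both read low on every array, between percentile 10.1 and percentile 28.5. Their readings may be background, where a difference between the cell types could not show. Cxcr6 was called lower after DT and in spleen, and the next gene, Fyco1, was not called in either and was lower in tumour Treg arrays (-0.43, adjusted p = 0.0122).

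**Figure D4:**
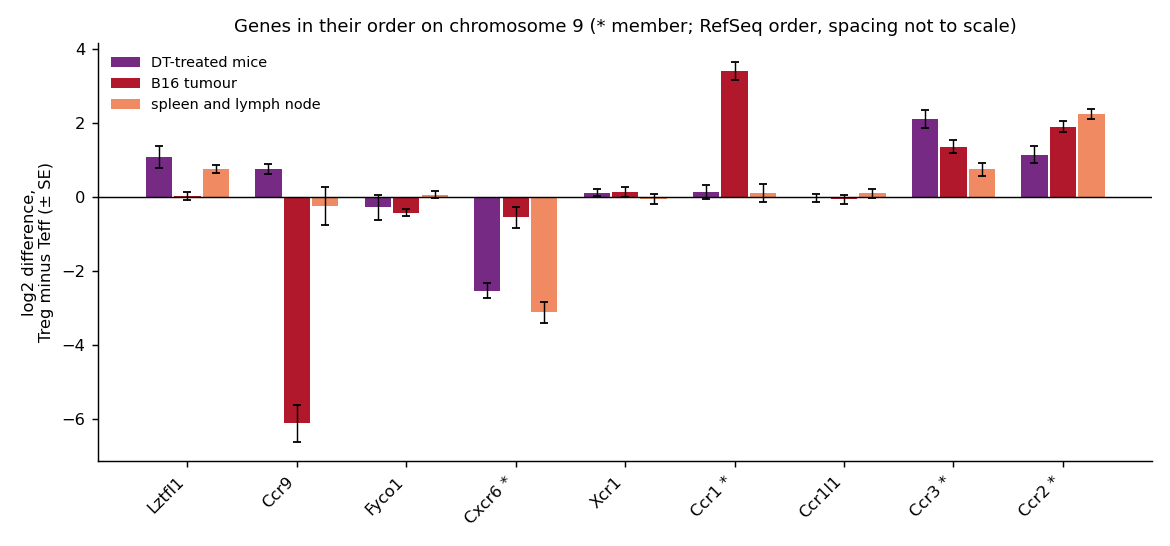
Log2 difference of Treg minus Teff for the 9 genes of the chromosome 9 stretch in their order, not to distance, in the 3 settings, with bars ± SE and members marked. Ccr3 and Ccr2 are above 0 in each setting, Cxcr6 is lowest after DT and in spleen, and Ccr9 is lowest in tumour (-6.12).

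For each receptor, the genes whose levels ran most like its own were taken by the lower of its Pearson correlations over the 10 and over the 8 arrays, among 6980 genes. These describe the arrays, which share their normalization and cell sort, and carry no test. Ccr8 ran most like Glrx (r 0.988 over 10 arrays and 0.983 over 8), AW112010 (0.975 and 0.983) and Hopx (0.985 and 0.974). Ccr3 ran most like Tnfrsf9 (0.961 and 0.949), which encodes the receptor 4-1BB, then Glrx and Rps27l. Ccr4 ran most like Phlda1 (0.957 and 0.942), then Alad and Il10, the gene of interleukin 10. Ccr2 ran most like Tpm4 (0.964 and 0.962), then Serinc3 and Capn2, and Cxcr3 ran like Litaf (0.958 and 0.938) and Padi2 (0.929 and 0.968). Cxcr6 ran most like Anxa1 (0.936 and 0.957), then Il18rap and Emp1. Ccr1 had the lowest likeness, with Ramac (0.894 and 0.85), Pdcl3 and Stap1.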

How the data were processed

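Total RNA of 18 arrays was analysed from the deposited tables. The authors deposited log2 expression values made with RMA, per the submitters' processing notes, which give no version, in a table of 10 arrays and one of 8. The deposited names came from a further table, of whose 21 value columns 16 could not be matched to a sample and were not used. Gene symbols were updated through RefSeq (GRCm38.p6). No scanner data or detection calls were used, and the number of arrays limits the precision.

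Each probe set was tested in R 4.3.3 with limma 3.58.1 (lmFit, then eBayes), without covariates, and p-values were adjusted by Benjamini-Hochberg over all probe sets of the table. The DT groups were fitted alone and the 4 other groups together, where the interaction is the Treg to Teff difference in tumour less that in spleen. The script was tested on simulated data. Tables and figures were made with pandas 2.3.3 and matplotlib 3.10.9 in Python 3.11.15.

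The members and lists were chosen with earlier results of these data known. Called genes were named by rule: every called ligand and other chemokine receptor, and of the other lists at most the 4 called genes with the largest differences per comparison. Alternatives changed the choice of probe set, dim filter, prior, block, centring, array weights, groups fitted and arrays left out. Leaving out 3 arrays of the DT table was chosen after seeing the data. Of the genes these rules name, 2 are not reported here.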

Additional observations from a re-analysis of the deposited data

Results flagged for a closer look

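The signed Treg minus Teff difference was higher in tumour than in spleen by 3.30 for Ccr1 (1419609_at). For Cxcr6 it was higher by 2.57 at both 1422812_at and 1425832_a_at. Each was a test of the difference itself in limma (adjusted p = 0.00221, 0.00289 and 0.00968). In size, the Cxcr6 difference was smaller in tumour (-0.55 at 1425832_a_at, not called) than in spleen (-3.12). The call of 1425832_a_at was lost with an intensity trend and robust prior (adjusted p = 0.0595). The other Ccr1 probe set, 1419610_at, was not called (adjusted p = 0.0519). The Ccr1 result came with high tumour Treg arrays, and the Cxcr6 result with spleen Treg arrays far below spleen Teff arrays. One array of 5 stood apart from its group in Ccr2: aTreg array 2 read 6.18 at 1421188_at, where the other aTreg arrays lay between 6.55 and 6.61. Of the 24 member groups of 5 arrays checked, this was the only one past Dixon's 95% critical value of 0.71, and chance passes about 1 in 20 such groups.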

How the results depend on the processing

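Of the 28 called results for single receptors, 22 kept their call under every alternative run for them and 6 did not. Members removed by the dim filter were not run under that alternative. Of the 14 not called, 12 stayed so. The lost calls were Ccr3 and Ccr4 in spleen, Ccr4 in tumour, Ccr3 in Treg and Ccr8 in Teff between tumour and spleen, and Cxcr6 in the interaction. Calls were gained for Cxcr6 in tumour without tumour Treg array 2 and for Ccr1 in Teff, tumour against spleen, when only the compared groups were fitted (adjusted p = 0.0359).

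With dim probe sets left out, only 3 members remained in the table of 8 arrays and 5 in that of 10. The receptors called were 4 of 6 after DT, 2 of 5 in spleen and 1 of 5 in tumour. Between sites they were 3 of 6 in Treg and 3 of 4 in Teff, and 1 of 2 in the interaction. The missing calls belong to members that the filter removed, and each member that remained kept its main result. With an intensity trend and robust prior the interaction called 1. Leaving out 1 array gave 3 to 4 called receptors in spleen, against 5 with all arrays. The sign turned in results that were never called: the interaction of Ccr2 was 0.21 with the mean of its probe sets, and with arrays centred on their median that of Ccr4 was 0.0095 and that of Cxcr3 0.000377. Leaving out 1 array gave -0.055 to 0.28 for Ccr1 in spleen, -0.0035 to 0.32 for Cxcr3 in tumour, -0.026 to 0.25 for Ccr4 in Treg between sites, -0.14 to 0.10 for Ccr3 and -0.20 to 0.46 for Ccr4 in Teff between sites, and -0.34 to 0.31 for Ccr4 and -0.19 to 0.14 for Cxcr3 in the interaction. The cause was not tested.

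The labels do not say what a shared replicate number means. Deviations of same-numbered arrays after DT correlated at 0.04 to 0.52, with pair 1 below 0.1, and 7 of 10 arrays correlated best with their own number, a hint from the data and not the design, so the arrays were not treated as paired. With the replicate block, 5343 probe sets were called after DT, against 3049 without it, and the SE of Ccr2 there was 0.119 against 0.231. With it the receptors called were 6 after DT, 5 in spleen, 5 in tumour, 5 in Treg between sites and 2 in the interaction, and Ccr3 in Treg between sites lost its call (0.59, adjusted p = 0.0513).

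Over all probe sets, 3049 were called after DT, 2064 without aTreg array 3 and 5949 without 3 arrays. In spleen 2809 were called, and 1348 without spleen Teff array 2. The tumour count of 5295 was as low as 3567 without tumour Treg array 1, which also took Treg between sites to 3123 of 4900. Without spleen Teff array 2, Teff between sites gave 1404 of 3160 and the interaction 544 of 1149.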
